A study of Drosophila melanogaster with 81 samples.

Results

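The H3K27me3 and H3K36me3 peak lists of HisC mutant Drosophila melanogaster embryos were compared with each other at each of the 2 times at which both marks were mapped. The comparison rests on 4 deposited lists, made from 8 of the 81 CUT&Tag libraries of the series (2 libraries per mark and time), and the 4 w1118 lists of the same marks and times, from another 8 libraries, serve as the reference. CUT&Tag uses an antibody to bring a transposase to a chromatin mark, so that the DNA beside the mark is cut and tagged. The libraries came from whole embryos of 30-minute egg lays at 25 °C, aged to one of 2 windows after egg laying, 4.5 to 5 h and 5.5 to 6 h. HisC embryos carried Df(2L)HisC, the deficiency of the replication-dependent histone gene cluster, on both copies of the chromosome arm, with P{GAL4-twi.2xPE} on one copy and P{UAS:eYFP}AH2 on the other. For the HisC H3K27me3 libraries at 4.5 to 5 h the labels give only Df(2L)HisC. Mutants were picked by eYFP, which the twi-driven GAL4 switches on in the early mesoderm. The w1118 embryos carry neither the deficiency nor the transgenes, so that the deficiency, the transgenes, the picking and the genetic background cannot be told apart. Whole embryos mix all germ layers, and a base counted under both marks may carry them in different cells.

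H3K27me3 is written by E(z) in Polycomb repressive complex 2 and covers silenced developmental genes, with the Hox genes as the classic case. H3K36me3 is written by Set2 behind elongating RNA polymerase II and covers the bodies of transcribed genes. In biochemical work on nucleosomes, methylation of H3K36 hinders the methylation of K27 on the same histone tail, and in most tissues the marks lie in separate domains. Df(2L)HisC removes the replication-dependent histone gene cluster, and the lists ask whether the domains stay separate in embryos that lack this cluster.

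All positions are in dm6. Each list gives a chromosome, a start and an end per peak and no height, and 1 list stands for the libraries of a group, so there is no spread between replicates and no test of a difference. Intervals in brackets are Clopper-Pearson 95% intervals of a share of peaks and cover counting error only. Sequencing depth is unknown, and a base outside the peaks is one where no peak was listed. Of H3K27me3, HisC had 8320 peaks over 9.13 Mb at 4.5 to 5 h and 8313 over 10.9 Mb at 5.5 to 6 h, against 4605 and 4588 peaks over 10.9 and 10.9 Mb in w1118. HisC peaks of this mark were narrower, with a median width of 778.5 and 924 bp, against 1634 and 1571.5 bp in w1118. Of H3K36me3, HisC had 7708 and 7479 peaks over 11.3 and 10.6 Mb, against 6093 and 5433 peaks over 11.4 and 13.7 Mb in w1118. The deleted histone cluster (2L:21416953-21541681, 111 genes) held 0 peaks in the 24 lists of both genotypes, so it gives no check of the labels.

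The marks met over a greater length in HisC than in w1118. They shared 1520 kb at 4.5 to 5 h and 1342 kb at 5.5 to 6 h in HisC, against 705 and 691 kb in w1118. That was 16.6% and 12.3% of the H3K27me3 length in HisC, against 6.48% and 6.33% in w1118. As a share of the H3K36me3 length it was 13.5% and 12.7% in HisC, against 6.20% and 5.04% in w1118. Over the 137 Mb used, the shared length was set against the length that lists of these sizes would share on average if placed without regard to each other, here called the ratio. The ratio was 2.03 and 1.60 in HisC, and 0.783 and 0.636 in w1118, so that the lists met more than such an average at both times in HisC and less at both times in w1118.

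Of all pairs among the 6 mapped marks, this pair was among those whose ratio differed most between the genotypes. Its ratio was 2.60 and 2.51 times higher in HisC than in w1118, which ranked 2 at 4.5 to 5 h and 1 at 5.5 to 6 h among 15 pairs. The direction was common to most pairs, since 13 of 15 had a higher ratio in HisC at both times. The pair H3K27me3 and H3K4me3 likewise lay above 1 in HisC (2.64 and 1.77) and below 1 in w1118 (0.921 and 0.953). In HisC itself the H3K27me3 and H3K36me3 ratio was the lowest of the 15 at both times. The pair H3K4me3 and H3K27ac, marks of the same active promoters, had 10.3 and 8.83 in HisC.

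**Figure D1:**
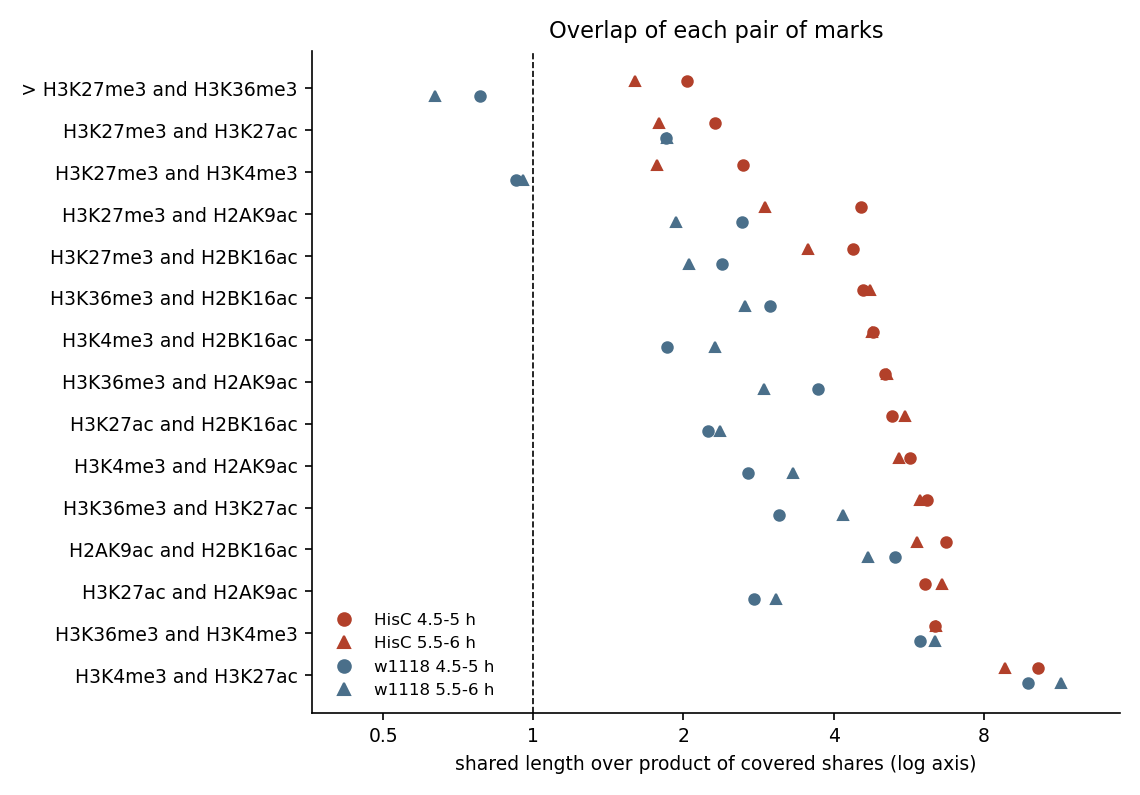
Ratio of shared length to the product of the covered shares (log axis) for each of the 15 pairs of marks, with HisC in red above w1118 in blue, circles for 4.5-5 h and triangles for 5.5-6 h. For H3K27me3 and H3K36me3 (lowest ratio in HisC, top row, marked >) HisC lies at 2.03 and 1.60, right of the dashed line at 1, and w1118 at 0.783 and 0.636, left of it.

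The shared bases also lay under histone acetylation, and the ratio depended on those bases. With the bases under H2AK9ac or H2BK16ac of the same genotype and time left out, an alternative added after the data were seen, the ratio was 0.758 and 0.709 in HisC and 0.350 and 0.273 in w1118. The shared part of the H3K27me3 length was then 3.42% and 2.95% in HisC. With only the bases under all 4 other marks left out, also added later, the ratio was 1.63 and 1.30 in HisC, against 0.670 and 0.536 in w1118.

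Counted by peaks, H3K27me3 peaks in HisC met a H3K36me3 peak in 25.1% of cases (24.1 to 26.0) at 4.5 to 5 h and in 21.1% (20.3 to 22.0) an hour later. In w1118 the shares were 19.7% (18.5 to 20.8) and 17.8% (16.7 to 19.0). The other way round, 27.04% (26.05 to 28.04) and 23.7% (22.8 to 24.7) of H3K36me3 peaks in HisC met H3K27me3, against 15.7% (14.8 to 16.6) and 15.2% (14.3 to 16.2) in w1118. The share of peaks wholly inside the other mark differed between the genotypes for H3K27me3 and was similar for H3K36me3. H3K27me3 peaks that lay wholly inside a H3K36me3 peak made up 9.25% and 7.09% of the HisC list, against 2.52% and 4.29% of the w1118 list. H3K36me3 peaks wholly inside a H3K27me3 peak made up 8.11% and 7.29% of the HisC list, against 8.67% and 6.74% of the w1118 list. In HisC these numbered 625 and 545, against 770 and 589 the other way round. In w1118 they were the more common form, with 528 and 366, against 116 and 197 the other way round. The H3K36me3 peaks that met H3K27me3 had a median width of 713 and 968.5 bp there, against 1770 and 2413 bp for the free ones, while in HisC both kinds were about as wide (1091 and 1133 bp, against 1093 and 1031 bp).

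Where the marks did not meet, they lay far from each other in HisC. The H3K27me3 peaks free of H3K36me3 numbered 6234 and 6557, and the median distance to the nearest H3K36me3 peak was 14.8 and 15.8 kb. Only 40 and 34 of them lay within 500 bp of one, so the marks seldom abutted without overlap. In w1118 the median distances were 13.2 and 14.8 kb. Seen from H3K36me3, free peaks in HisC were a median of 12.8 and 16.3 kb from H3K27me3, against 37.8 and 38.8 kb in w1118. HisC had more H3K27me3 peaks, 8320 and 8313 against 4605 and 4588, and the distances were not adjusted for this. The shared bases of HisC fell into 2118 and 1799 segments with a median width of 533 and 553 bp, against 959 and 846 segments of 533 and 563 bp in w1118. There were thus more segments in HisC at a similar median width.

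Shared segments in HisC lay mostly inside genes and away from their ends. Of the shared length, 70.8% and 70.9% lay in a gene more than 500 bp from any gene end, 14.8% and 16.8% within 500 bp of an end, and 14.3% and 12.3% between genes. In w1118 only 47.4% and 43.7% lay inside genes, 25.4% and 27.02% near ends, and 27.2% and 29.3% between genes. HisC bases under H3K27me3 alone lay between genes for 29.2% and 31.5% of their length, and those under H3K36me3 alone for 3.54% and 3.84%. By this measure the shared bases of HisC stood between the single marks. Near gene ends they lay below both, since bases under H3K27me3 alone had 17.8% and 18.0% of their length there and those under H3K36me3 alone 27.3% and 27.9%. Of all bases used, 55.8% lay inside genes, 17.6% near ends and 26.7% between genes.

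On every large chromosome arm the ratio was above 1 in HisC and below 1 in w1118. The X had the lowest HisC ratio of the large arms, 1.45 and 1.18, and also the lowest in w1118, 0.397 and 0.369. The small chromosome 4, which is heterochromatic along much of its length, shared 26.6% and 19.5% of its H3K27me3 length in HisC, against 15.5% and 14.1% in w1118. On the Y the measures differed in direction. The shared bases were 78.6% and 88.5% of its H3K27me3 length in HisC, against 58.5% and 58.2% in w1118, but 43.4% and 37.9% of its H3K36me3 length in HisC, against 86.3% and 97.9% in w1118. Its ratio was lower in HisC, at 54.1 and 64.5, against 87.9 and 97.0 in w1118. Within 3 Mb of the centromere of a large arm 42.4% and 30.1% of the H3K27me3 length was shared in HisC, against 13.0% and 13.5% in w1118. These bases held 10.7% and 7.68% of the shared length in HisC. The rest of the genome, with chromosome 4 and the Y, gave a ratio of 1.79 and 1.43 in HisC, against 0.689 and 0.555 in w1118.

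Bases with both marks carried the other 4 mapped marks more often than bases with either alone. In HisC, H3K4me3, the mark of active promoters, covered 54.1% and 53.6% of the shared bases, against 4.38% and 4.06% of those under H3K27me3 alone and 27.04% and 34.4% of those under H3K36me3 alone. H3K27ac, found at active promoters and enhancers, covered 50.3% and 53.6% of the shared bases, against 3.69% and 4.18% with H3K27me3 alone and 27.5% and 31.4% with H3K36me3 alone. H2AK9ac covered 76.3% and 70.7% of the shared bases in HisC. All 4 lay on 32.0% and 30.4% of the shared bases, and none on 6.69% and 10.4%.

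In w1118 the shared bases also lay largely under acetylation, with 51.7% and 64.7% under H3K27ac and 67.9% and 63.8% under H2AK9ac. H2BK16ac covered 79.8% and 68.6% of the shared bases in HisC, against 56.4% and 58.9% in w1118. H3K4me3 covered 54.1% and 53.6% in HisC, against 33.7% and 41.8% in w1118. Away from gene ends its cover was 53.7% and 52.4% of the shared bases in HisC, against 29.0% and 36.6% in w1118. Near gene ends it was 56.3% and 59.6%, against 47.3% and 55.7%. The HisC H3K4me3 lists as a whole also had less of their length near gene ends, 40.16% and 41.004%, against 57.9% and 58.0% in w1118.

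**Figure D2:**
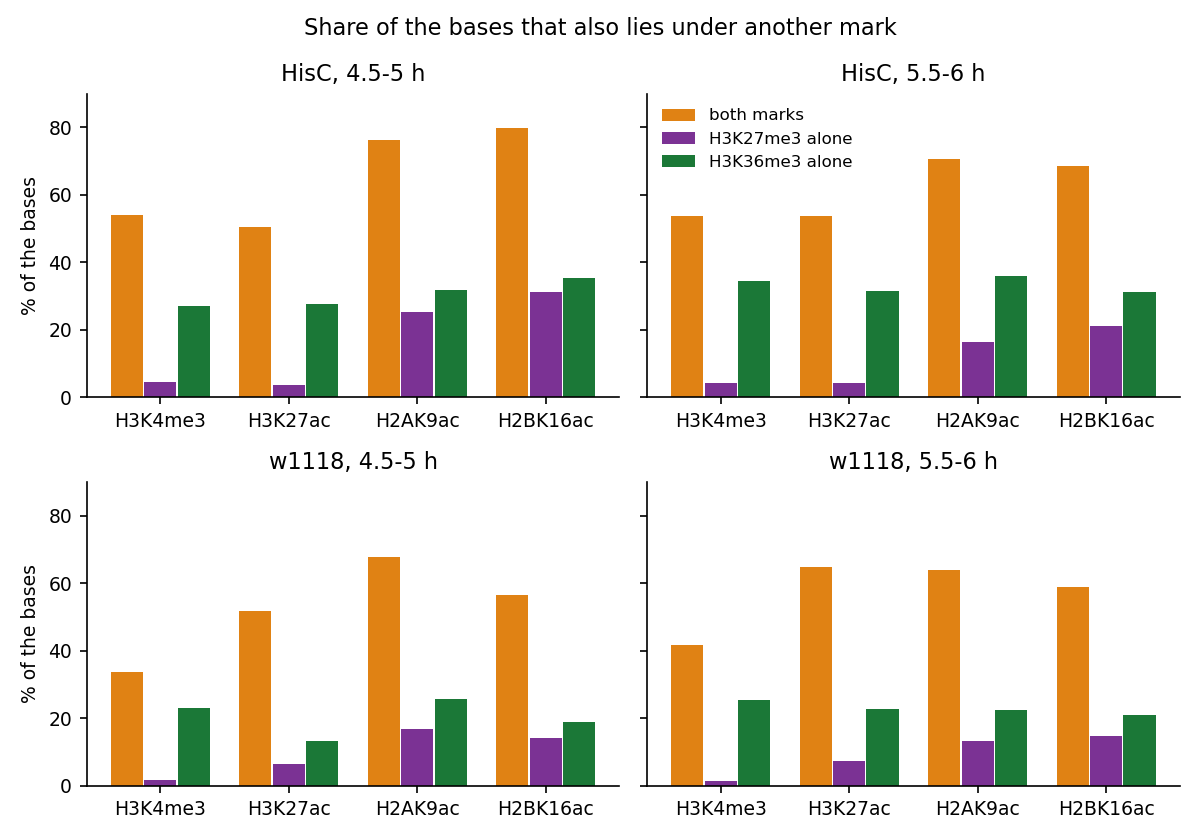
Percent of bases that also lie under H3K4me3, H3K27ac, H2AK9ac or H2BK16ac (vertical axis), for bases with both marks (orange), with H3K27me3 alone (purple) and with H3K36me3 alone (green), in HisC (upper panels) and w1118 (lower panels) at 4.5-5 h (left) and 5.5-6 h (right). The orange bars are the highest for each mark in all 4 panels, and H3K4me3 reaches 54.1% and 53.6% in HisC, against 33.7% and 41.8% in w1118.

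The bases shared in HisC had no single state in w1118. At 4.5 to 5 h, 15.5% of their length carried both marks in w1118, 20.1% H3K27me3 alone, 28.3% H3K36me3 alone and 36.1% neither. At 5.5 to 6 h the shares were 16.3%, 16.4%, 35.2% and 32.1%. H3K36me3 alone was thus more common than H3K27me3 alone, and 36.1% and 32.1% lay outside both w1118 lists. In time, 662 kb were shared at both times in HisC, which is 43.5% of the shared length at 4.5 to 5 h and 49.3% of that at 5.5 to 6 h. In w1118 the 389 kb shared at both times were 55.2% and 56.3%. HisC bases that were shared only at 4.5 to 5 h were later under H3K27me3 alone (24.6% of the shared length at 4.5 to 5 h), under H3K36me3 alone (22.3%) or under neither (9.65%).

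Genes were sorted by the share of the gene body, from annotated start to end, under each mark. Of 15555 genes of at least 500 bp, those with both marks on the same 20% or more of the body, here called together, numbered 495 (3.18%) at 4.5 to 5 h and 477 (3.07%) at 5.5 to 6 h in HisC. In w1118 they numbered 142 (0.913%) and 111 (0.714%). At both times 248 genes (1.59%) qualified in HisC, at 235 separate loci, and 63 (0.405%) in w1118. Between them 19 genes were in both sets, or 7.66% of the HisC set and 30.2% of the w1118 set. Just inside the threshold in HisC stood Tsp42Eq with 20.04% and 27.2% and slbo with 42.6% and 20.2%, and just outside it stood CG30503 and kappaB-Ras with 19.9% and 20.3% each.

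In most genes with both marks, nearly all of the mark with the smaller cover was shared. Genes with at least 20% of the body under each mark, wherever it lay, numbered 564 and 544 in HisC, against 160 and 136 in w1118. In these the mark with the smaller cover was shared over a median of 100% of its length in each of the 4 pairs of lists. More than 90% of it was shared in 446 and 400 of the HisC genes. In HisC that was 79.1% and 73.5% of such genes, against 79.4% and 70.6% in w1118. Less than 10% of it was shared in 8 and 9 genes in HisC, against 7 and 8 in w1118. The number of genes with both marks differed between the genotypes, and the percent of them with more than 90% shared was alike.

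**Figure D3:**
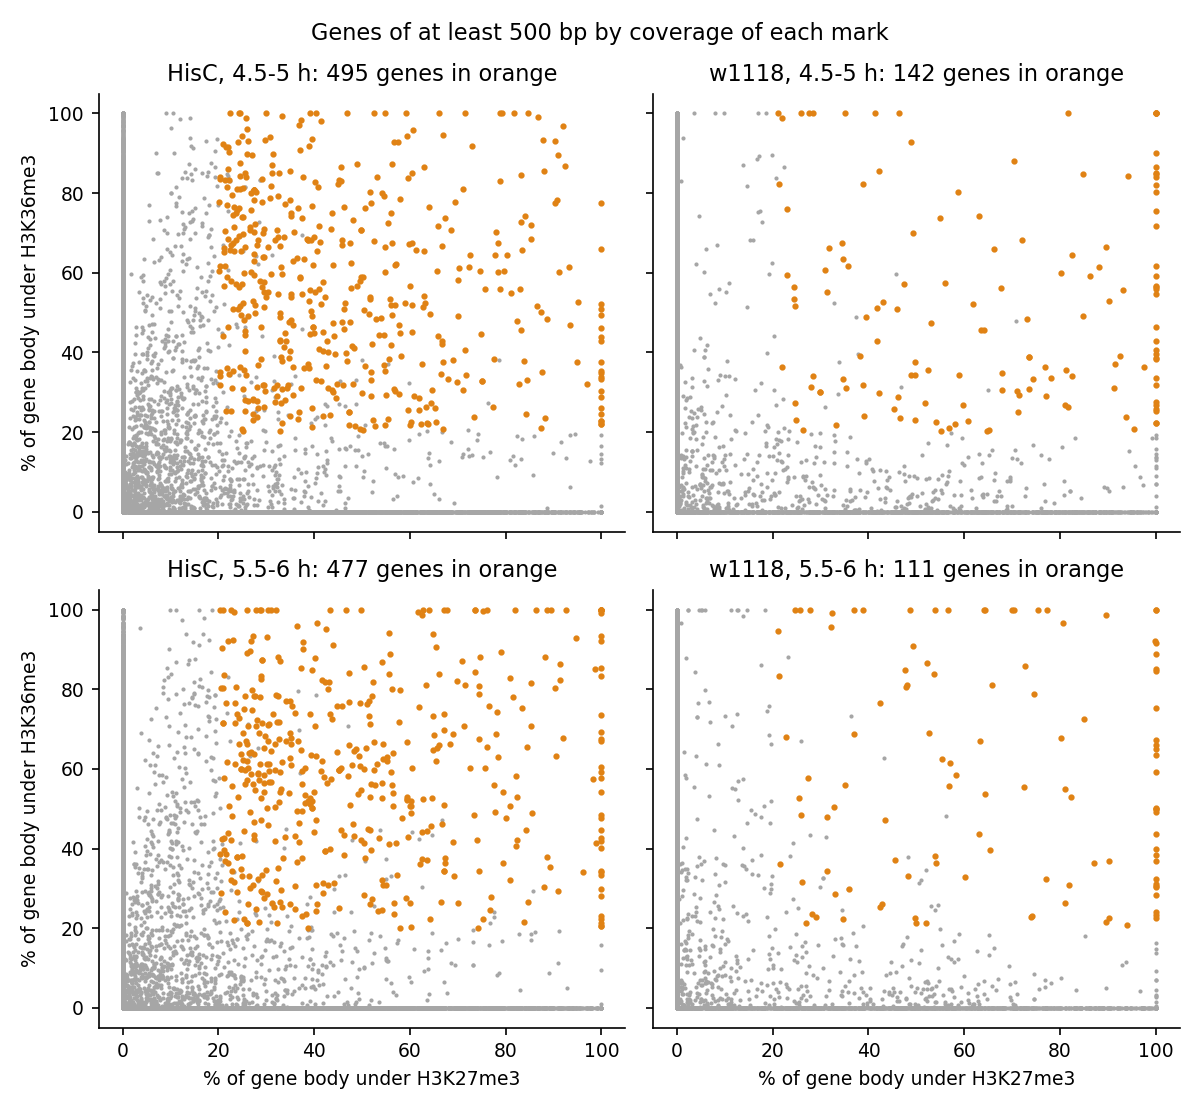
Each point is a gene of at least 500 bp, placed by the percent of its body under H3K27me3 (horizontal) and under H3K36me3 (vertical), in HisC (left) and w1118 (right) at 4.5-5 h (upper) and 5.5-6 h (lower); orange marks genes with both marks on the same 20% or more of the body. There are 495 and 477 orange genes in HisC, against 142 and 111 in w1118, and most other genes lie along the axes with 1 mark or none.

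The 248 genes with the marks together at both times in HisC were sorted by the marks over at least 20% of their bodies in w1118. The most common state was H3K36me3 only, with 115 genes (46.4%), 110 of them protein-coding. H3K27me3 only was found for 27 genes, both marks for 23, neither for 36, and a state that differed between the times for 47. In the first set the w1118 lists had H3K36me3 over a median of 73.5% and 87.7% of the body and H3K27me3 over 0%. In HisC the same genes had H3K36me3 over a median of 67.0% and 66.3% and H3K27me3 over 35.1% and 40.2%. Their shared bases lay under H3K4me3 for 78.9% and 81.1%. In the set with H3K27me3 only in w1118 that share was 31.9% and 29.3%.

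CSN6 (3R:22580773-22582033), a subunit of the COP9 signalosome that trims Nedd8 from cullin ubiquitin ligases, showed the first pattern most plainly. H3K27me3 covered 81.8% and 75.3% of its body in HisC and 0% and 0% in w1118. H3K36me3 covered 100% and 99.8% in HisC and 100% and 100% in w1118. The HisC H3K27me3 peak at 4.5 to 5 h ran over 3R:22580804-22581834, and the one at 5.5 to 6 h over 3R:22580774-22581722, the first inside a H3K36me3 peak and the second starting 2 bp before one. The gene kri (3L:5810973-5812228) had H3K27me3 on 71.4% and 86.3% in HisC, against 0% and 0% in w1118, with H3K36me3 at 100% in all 4 lists. The annotated span of CSN6 overlaps that of Dph5, and the span of kri overlaps that of mad2. In yellow-e3 (3R:13403423-13404870), of the yellow gene family, the marks shared 81.0% and 93.3% of the body in HisC, against 0% and 12.6% in w1118.

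Some genes of this set serve basic cell functions. RpL14 (3L:8601006-8602392), of the large ribosomal subunit, had both marks on the same 56.9% and 52.0% of its body in HisC, against 0% and 0% in w1118. Rpn6 (2R:14750166-14752910), of the proteasome lid, had 32.5% and 53.8%, against 0% and 0%. Cdc6 (3L:8631509-8634069), which loads the replicative helicase at origins, had 48.9% and 26.5%, against 0% and 0%. In each the w1118 lists had H3K36me3, on at least 58.0% of the body, and no H3K27me3. The annotated span of Rpn6 overlaps that of ave, the span of Cdc6 that of Zasp66, and the span of RpL14 those of 2 snoRNA genes.

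Families of such genes, chosen after these values were seen and so no support for a theme, were mixed. Of 8 genes for the signal recognition particle and its receptor, which bring secretory proteins to the endoplasmic reticulum, 3 had the marks together at both times in HisC and 0 in w1118. These were Srp68 (59.6% and 55.7% shared), SrpRbeta (51.6% and 54.2%) and Srp54k (25.3% and 27.3%). Srp9 and Srp72 had H3K36me3 and no H3K27me3 in HisC. Of 7 COP9 signalosome genes, CSN6 and CSN5 had the marks together at both times and the other five had no H3K27me3 in HisC. Of 8 genes of the CCT chaperonin, which folds actin and tubulin, only CCT4 qualified at both times, with 36.1% and 40.2%, while CCT3 had 39.6% and 0% in HisC, against 39.0% and 0% in w1118. Of 6 genes of the Mcm helicase, which unwinds DNA at replication forks, 0 qualified at both times in either genotype, with 0 and 1 at the single times in HisC, against 1 and 0 in w1118.

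Of the 27 genes with H3K27me3 only in w1118, 19 had no H3K36me3 base there at either time, and the other 8 had at most 13.8% of the body under it. The gene mas (3L:4161666-4167464), a serine protease homologue needed for muscle attachment, had H3K36me3 on 51.4% and 52.6% of its body in HisC, against 0% and 0% in w1118. H3K27me3 covered 62.8% and 54.3% in HisC, against 59.6% and 67.1% in w1118. The shared bases had neither H3K4me3 nor H3K27ac in HisC over the 2752 bp shared at both times (3L:4162199-4164950). Vha100-3 (2R:18908961-18911895), a subunit of the proton pump V-ATPase that overlaps the annotated gene sano, had both marks on the same 71.9% and 78.0% in HisC, against 0% and 0% in w1118. Ccp84Ab (3R:6701968-6702877), a cuticle protein gene beside the Antennapedia complex, had H3K36me3 on 77.6% and 57.6% in HisC and none in w1118, under H3K27me3 that covered at least 98.2% in all 4 lists.

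Transcription factors of this set, named after their values were seen, included vvl, ems, cas and sens. The POU factor gene vvl (3L:6790158-6794941) had H3K36me3 on 51.9% and 33.4% of its body in HisC, against 1.40% and 3.53% in w1118. The head gap gene ems (3R:13901853-13904620) had 29.7% and 44.6% in HisC, against 6.14% and 4.30% in w1118. H3K27me3 on ems was lower in HisC, at 49.9% and 84.3%, against 93.1% and 96.8% in w1118.

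A set of 36 genes had neither mark on 20% of the body in w1118. VhaAC45RP (3R:30164692-30166419), related to a V-ATPase accessory subunit, had H3K27me3 on 78.8% and 100% and H3K36me3 on 82.9% and 83.4% in HisC, with no peak of either within 2 kb in w1118. Adgf-E (2R:14656798-14658755), of the adenosine deaminase-related growth factors, had H3K27me3 on 91.9% and 100% and H3K36me3 on 96.7% and 73.5% in HisC, and 0% of both in w1118. Another segment shared in HisC and under neither mark in w1118 (X:2790875-2792992) lies over w, the eye pigment transporter gene, which overlaps the larger annotated gene kirre. The allele w1118 is a partial deletion of w, and transgenes such as those in HisC often carry a copy of it. This segment therefore cannot be read as a difference in the marks. In w1118 it lay under H2AK9ac over 0% and 51.1% and under H2BK16ac over 0% and 84.5%. How much of the segment is present in w1118 was not tested.

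**Figure D4:**
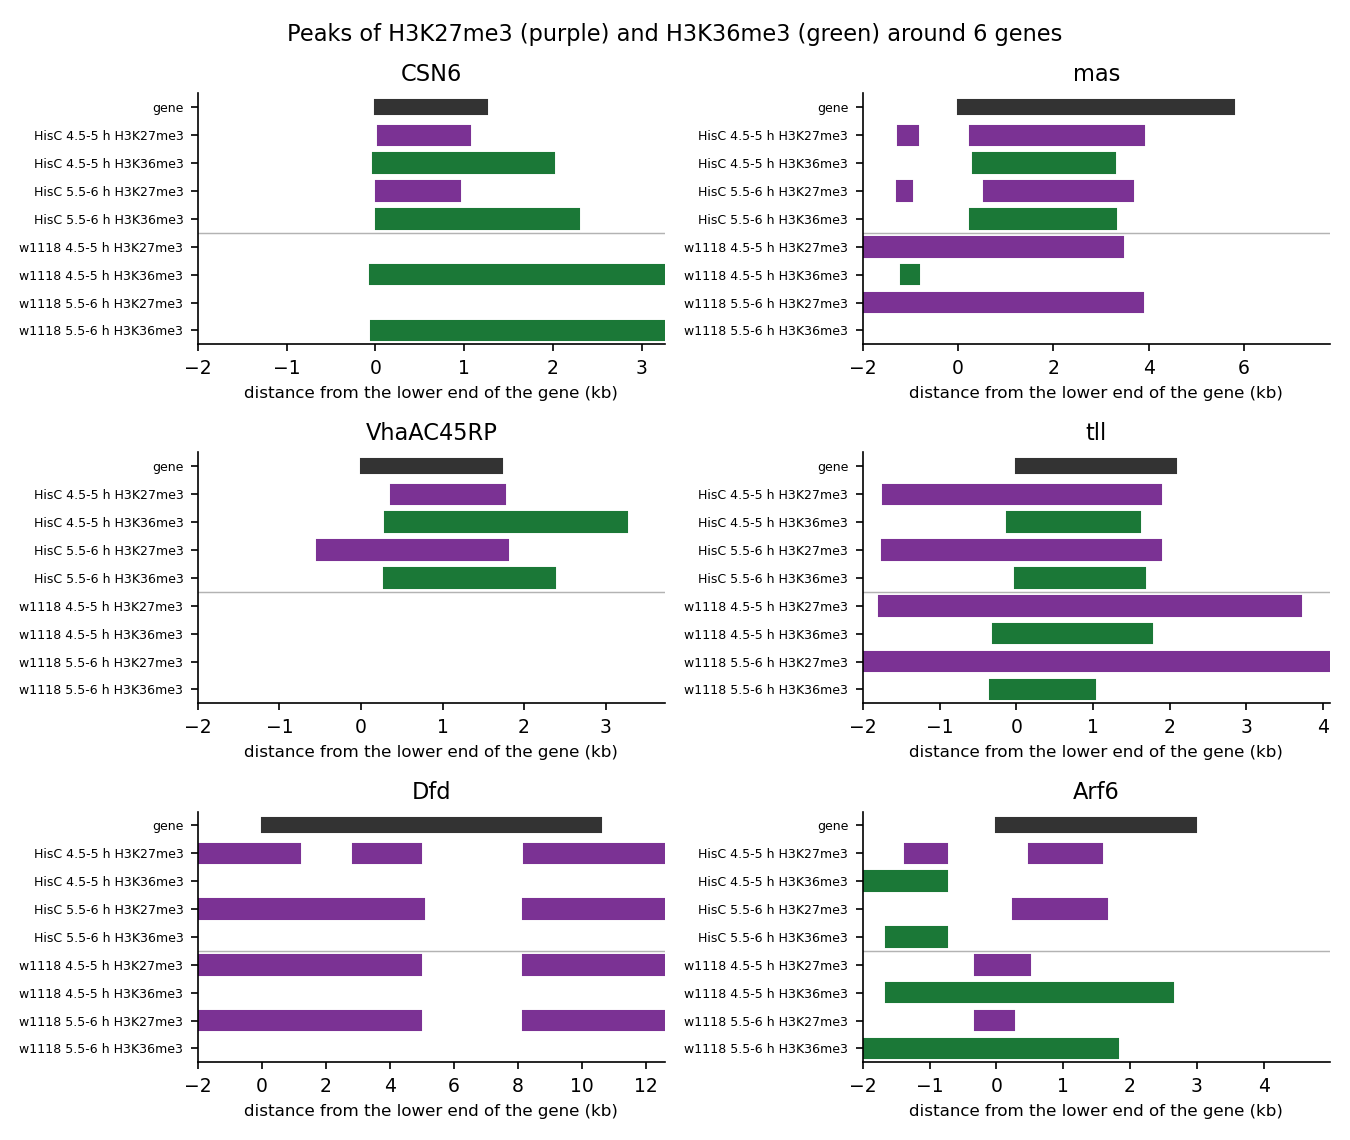
Peaks of H3K27me3 (purple) and H3K36me3 (green) by list around CSN6, mas, VhaAC45RP, tll, Dfd and Arf6, with the gene as a dark bar, the distance from its lower coordinate in kb on the horizontal axis, and HisC rows above w1118 rows. In HisC, CSN6 has H3K27me3 on the same bases as H3K36me3, and mas has H3K36me3 on bases that also carry H3K27me3 in w1118, while VhaAC45RP has peaks in HisC only. The gene tll has both marks in all lists, Dfd has H3K27me3 alone, and the H3K36me3 that covers most of Arf6 in w1118 ends before the gene in HisC.

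The 23 genes with both marks in both genotypes included tll, hkb and kni, terminal and gap genes of segmentation that are on in part of the embryo and silenced in the rest. In tll (3R:30852315-30854400) the marks shared 77.6% and 80.2% of the body in HisC, against 84.8% and 49.2% in w1118. In kni (3L:20692330-20695378) they shared 49.5% and 47.6% in HisC, against 59.1% and 28.5% in w1118. The third, hkb (3R:4345015-4346646), named after its values were seen, had 61.2% and 67.1% in HisC, against 71.8% and 59.3% in w1118. The SoxB gene D (3L:14175610-14178620), active in the neuroectoderm, had 70.3% and 65.5% in HisC, against 64.5% and 36.8% in w1118. In all of these the w1118 value at 4.5 to 5 h lay near the HisC values or above them, and the one at 5.5 to 6 h lay below both HisC values.

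Genes whose w1118 state changed between the times included wor, sna, gcm, hb and eve. In wor (2L:15423297-15425580), a snail-family gene of neuroblasts, the marks shared 60.4% and 69.8% in HisC, against 0% and 74.6% in w1118. In sna (2L:15476593-15478260), the mesoderm determinant of the same family, they shared 39.3% and 65.9% in HisC, against 45.5% and 0% in w1118. In hb (3R:8690980-8697822), a gap gene, they shared 21.1% and 31.0% in HisC, against 25.7% and 5.00% in w1118. In eve (2R:9979319-9980795), a pair-rule gene, they shared 85.6% and 22.4% in HisC, against 0% and 67.3% in w1118. That these genes had the marks together at both times in HisC and changed in w1118 is fixed by the way they were chosen.

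By gene list, the marks were together most often in developmental regulators. All 18 lists were drawn up with earlier results of these data known, and their counts at both times read against 1.59% of all genes in HisC and 0.405% in w1118. Segmentation genes had 7 of 30 in HisC and 5 of 30 in w1118, neuroectoderm and neuroblast genes 7 of 30 and 2 of 30, and Polycomb target transcription factors 9 of 71 and 5 of 71. Several genes belong to more than 1 of these lists. Mesoderm and muscle genes had 1 of 27 in each genotype. At the single times segmentation genes had 9 and 9 of 30 in HisC, against 9 and 8 in w1118. Neuroectoderm and neuroblast genes had 9 and 7 of 30, against 7 and 5. Polycomb target transcription factors had 16 and 11 of 71, against 12 and 9, and mesoderm and muscle genes 5 and 1 of 27, against 3 and 3. All genes had 3.18% and 3.07% in HisC, against 0.913% and 0.714% in w1118.

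None of the 8 Hox genes had the marks together in HisC or in w1118 at either time, a count near the 1.59% and 0.405% of all genes for a list this small. With any shared base at both times there were 4 of 8 in HisC, against 5 of 8 in w1118, beside 6.65% of all genes in HisC and 2.38% in w1118. Both counts depend on gene length, for which no list was matched. The Hox genes span from 10.6 kb (Dfd) to 103 kb (Antp), against a median of 2.00 kb over all genes of at least 500 bp. H3K27me3 covered a median of 39.9% and 43.0% of the Hox gene bodies in HisC, against 66.2% and 65.9% in w1118. H3K36me3 covered a median of 0.154% and 1.54% in HisC, against 1.35% and 0.714% in w1118. Dfd (3R:6791836-6802428) and Scr (3R:6823120-6849981) had no H3K36me3 in any of the 4 lists. Ubx (3R:16656623-16734426) had none in HisC and 2.06% at 4.5 to 5 h in w1118. The highest was lab (3R:6661427-6678590), with H3K36me3 on 9.24% and 6.40% in HisC, against 1.51% and 4.44% in w1118.

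In lists of genes for basic functions the counts at the single times read against 3.18% and 3.07% of all genes in HisC and 0.913% and 0.714% in w1118. Ribosomal protein genes had 8 and 9 of 85 together in HisC (9.41% and 10.6%) and 3 at both times (RpL14, RpL22 and RpL40), against 0 of 85 in w1118 at each time. RpL3 (3R:11221894-11225173) had the marks on the same 14.7% and 56.5% of its body in HisC, against 0% and 0% in w1118. Proteasome genes had 3 and 3 of 48 in HisC, against 1 and 0 in w1118. The HisC genes at both times were Rpn6 and Prosalpha3, 2 of 48, against 0 in w1118. Cell cycle genes had 3 and 4 of 38 in HisC, against 2 and 0 in w1118. Only Cdc6 qualified at both times in HisC, and 0 genes did in w1118. The mitotic phosphatase gene stg (3R:29251826-29255800), whose transcription times the embryonic divisions, had 14.0% and 26.7% shared in HisC, against 0% and 0% in w1118. Histone variant and chaperone genes had 0 of 22, cell death and DNA damage genes 0 of 13 and maternal germline genes 0 of 17 at both times in HisC and in w1118.

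Among Polycomb group genes, ph-p (X:2126210-2138371), of Polycomb repressive complex 1, had the marks together at both times in both genotypes, on 27.8% and 26.6% in HisC, against 20.2% and 25.3% in w1118. Psc (2R:12965997-12980994), of the same complex, had 18.3% and 37.3% shared in HisC, against 11.9% and 11.5% in w1118. The list of Polycomb group genes had 1 of 23 at both times in each genotype, beside 1.59% of all genes in HisC and 0.405% in w1118. At the single times it had 1 and 4 of 23 in HisC, against 1 and 1 in w1118. All genes had 3.18% and 3.07% in HisC, against 0.913% and 0.714% in w1118. None of 25 Trithorax group and H3K36 enzyme genes had them together, a count near these shares for a list this small. In osa (3R:17687818-17718350), of the Brahma remodelling complex, the marks lay on the same 13.5% and 2.96% in HisC, against 1.84% and 1.21% in w1118.

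Lists of genes that act in later, differentiated tissues had counts near the share of all genes. Odorant and gustatory receptor genes had 0 of 119 together at both times in HisC, ionotropic receptor genes 0 of 60, and immunoglobulin cell adhesion genes of the dpr, DIP, beat and side families 0 of 54. At the single times 4 and 1 of 119 odorant and gustatory receptor genes had them in HisC (3.36% and 0.840%), against 1 and 0 in w1118. Cuticle protein genes had 4 and 4 of 99 in HisC and 1 at both times (Ccp84Ab), against 0 in w1118. H3K27me3 alone at both times, found on 3.57% of all genes in HisC and 3.86% in w1118, was on 14 of 119 odorant and gustatory receptor genes in HisC, against 7 of 119 in w1118. Of ionotropic receptor genes it was on 10 of 60 in HisC, against 4 of 60 in w1118, and of cuticle protein genes on 11 of 99, against 10 of 99. No immunoglobulin cell adhesion gene had it by this rule in either genotype. Shares of the body depend on gene length, for which the lists were not matched, and DIP-lambda among the immunoglobulin genes spans 379 kb. In immunoglobulin cell adhesion genes H3K27me3 reached a median of 6.39% and 10.1% of the body in HisC, against 0% and 0% in w1118, with H3K36me3 at a median of 0% in all 4 lists.

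**Figure D5:**
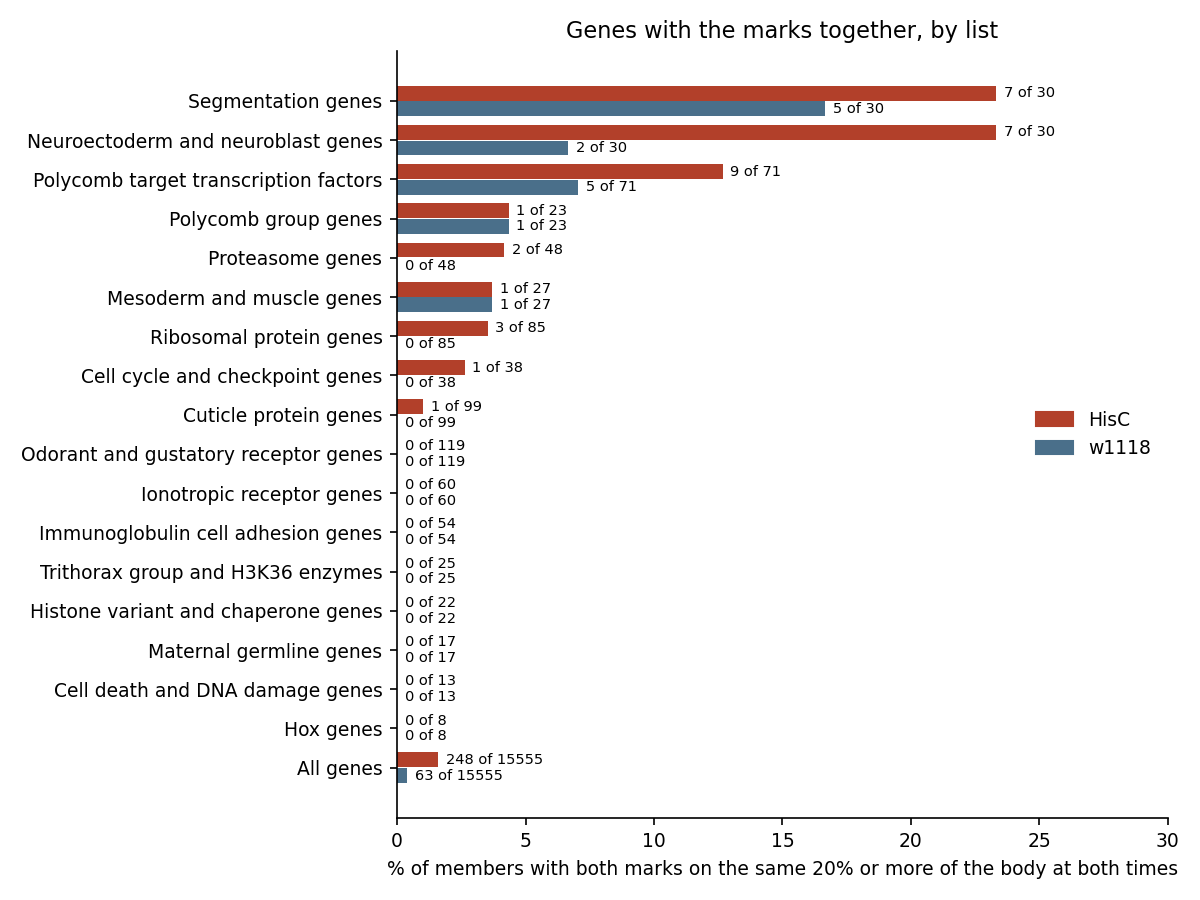
Percent of the members of each gene list with both marks on the same 20% or more of the body at both times (horizontal axis, counts beside the bars), HisC in red above w1118 in blue, with all 15555 genes in the bottom row. Segmentation genes reach 7 of 30 in HisC, against 5 of 30 in w1118, ribosomal protein genes 3 of 85, against 0 of 85, and Hox genes 0 of 8 in each.

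Most marked genes still had 1 mark. H3K27me3 on at least 50% of the body with no H3K36me3 at all was found in 809 (5.20%) and 1006 (6.47%) genes in HisC, against 797 (5.12%) and 766 (4.92%) in w1118. At both times these were 556 (3.57%) in HisC and 601 (3.86%) in w1118, with 209 genes in both sets. H3K36me3 alone by the same rule was found in 2051 (13.2%) and 1865 (12%) genes in HisC, against 3209 (20.6%) and 3872 (24.9%) in w1118. At both times these were 1264 (8.13%) in HisC and 3012 (19.4%) in w1118, with 989 in both sets. Of the 3012 w1118 genes, 92 (3.05%) had the marks together at both times in HisC and 0 had H3K27me3 alone. Of the 601 genes with H3K27me3 alone in w1118, 12 (2.00%) had the marks together in HisC and 1 had H3K36me3 alone. The shares together read against 1.59% of all genes in HisC. By these rules an exchange of 1 mark for the other was rare. The single mark stayed in 209 of the 601 and 989 of the 3012, and most genes of each set met none of these rules in HisC. Of the w1118 length under H3K27me3 alone, 60.8% and 55.6% lay under neither mark in HisC. For the length under H3K36me3 alone the values were 36.6% and 46.9%.

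Among genes with no H3K36me3 base at either time in HisC, those with the most H3K27me3 bases in the body were lncRNA:iab8 (3R:16831116-16923231) and MSAmiP, which overlap in the bithorax complex, followed by Ubx, bi, fru and Lim1. Long genes rank high by this measure. The antenna and leg regulator gene Lim1 (X:8756539-8805804) had H3K27me3 on 29.0% and 31.0% in HisC, against 58.5% and 54.0% in w1118. In fru (3R:18414273-18545586), a sex-determination factor gene, it was 13.5% and 19.5% in HisC, against 11.7% and 13.4% in w1118. H3K36me3 with no H3K27me3 covered the most bases in hiw, HUWE1, Bruce, lola, Vps13 and kst, and none of these had a H3K27me3 base in w1118 either. The ubiquitin ligase gene HUWE1 (X:15712628-15731935) had H3K36me3 on 63.0% and 51.8% of its body in HisC, against 49.8% and 53.01% in w1118. In Bruce (3R:10312039-10331353), which codes for an inhibitor of apoptosis, it was 57.7% and 50.0% in HisC, against 51.0% and 64.8% in w1118.

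Genes that carried both marks on different parts of the body, at least 20% under each and less than 5% under both, were few. There were 12 (0.0771%) and 12 (0.0771%) in HisC and 7 (0.0450%) and 9 (0.0579%) in w1118. At both times there were 0 (0%) in HisC and 3 (0.0193%) in w1118. Those 3 were Axn, CG3216 and CG8611, and these and the HisC genes of this kind are named after their values were seen. At 4.5 to 5 h sax (2R:7806484-7810067), a BMP receptor gene, had H3K27me3 on 55.4% and H3K36me3 on 37.1% in HisC, with 4.46% shared. At 5.5 to 6 h its marks shared 17.9%. Nup107 (2L:10733293-10736071), of the nuclear pore, had 59.7% and 32.3% at 4.5 to 5 h in HisC and no H3K27me3 at 5.5 to 6 h.

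A few of the 15555 genes had the marks the other way round in the genotypes at both times. At any size of difference, 60 of 15555 had more H3K27me3 than H3K36me3 in HisC and the reverse in w1118. The opposite held for 91 of 15555, with more H3K36me3 in HisC. These counts admit very small differences, such as 0.3545 percentage points in Myo81F, and the genes described below are those with the largest. With a difference of at least 20 percentage points of the body in all 4 pairs of lists, 5 genes had more H3K27me3 than H3K36me3 in HisC and the reverse in w1118 (CYLD, Arf6, Tgs1, moi and CG5937). A further 4 had more H3K36me3 than H3K27me3 in HisC and the reverse in w1118 (Nazo, tld, CG5002 and CG33769). CYLD (2L:10295859-10299847), a deubiquitinase gene, had H3K27me3 on 42.7% and 51.2% in HisC, against 15.8% and 22.7% in w1118. Its H3K36me3 was at 0% and 0% in HisC, against 68.1% and 68.1% in w1118. Arf6 (2R:15322501-15325490), a small GTPase of membrane traffic, had H3K27me3 on 36.2% and 47.2% in HisC, against 16.7% and 8.70% in w1118, and H3K36me3 on 0% and 0% in HisC, against 88.6% and 60.9% in w1118. Tgs1 and moi, which the annotation gives the same span (3R:18255530-18257677) and which count as 1 locus, had H3K27me3 on 22.6% and 33.9% in HisC and H3K36me3 on 84.6% and 84.2% in w1118, and 0% of the other mark in each. In the same direction, with smaller differences, stood ZAP3 and scny. ZAP3 (X:10071858-10082492) had H3K27me3 on 46.3% and 63.8% in HisC, against 0% and 0% in w1118, and H3K36me3 on 26.6% and 14.2% in HisC, against 61.0% and 63.1% in w1118. The ubiquitin protease gene scny (3L:5769002-5776271) had H3K27me3 on 35.7% and 18.8% in HisC and none in w1118, and H3K36me3 on 3.54% and 0% in HisC, against 55.1% and 59.3% in w1118.

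In the reverse direction stood Nazo (3R:8287876-8288613), with H3K36me3 on 59.8% and 56.5% in HisC and H3K27me3 on 65.6% and 60.8% in w1118, and 0% of the other mark in each. The metalloprotease gene tld (3R:24749731-24753510), which frees the BMP ligand in dorsal tissue, had H3K36me3 on 28.1% and 22.5% and no H3K27me3 in HisC. In w1118 it had H3K36me3 on 13.2% and 17.8% and H3K27me3 on 37.5% and 48.0%.

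As regions, 1042 segments (662 kb) carried both marks at both times in HisC, and 181 of them were at least 1 kb wide. Of the 10 widest, 8 lay on 3R beside the centromere, between 3R:140159 and 3R:327299, and 1 lay on the Y. None of these 9 overlapped a gene, and in the w1118 lists each mark by itself covered at least 45.7% of each of them. The part of them under both marks in w1118 was not computed. The widest was 3R:210615-219177 (8563 bp). H2AK9ac and H2BK16ac each covered at least 73.3% of each of these 9 in every list of both genotypes. H3K4me3 covered at least 77.5% of each of the 8 on 3R. On the Y segment it covered 34.7% and 60.8% in HisC, against 0% and 23.3% in w1118. H3K27ac cover varied from 0% to 100%. Whether these segments carry H3K27me3 and H3K36me3 in particular was not tested. Outside 3R and the Y lay 2R:6456611-6460528 (3918 bp), which w1118 had under H3K27me3 over 8.19% and 40.0% and under H3K36me3 over 0% and 0%. Away from centromeres, chromosome 4 and the Y there were 939 such segments (552 kb).

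Some of the 10 widest of those, ranked after the data were seen, lay within a single gene. Nadk1a, an NAD kinase gene, held 2R:13537556-13540021 (2466 bp), under H3K27me3 over 0% and 0% and under H3K36me3 over 38.2% and 57.3% in w1118. The chitin synthase gene kkv held 3R:5382517-5384725 (2209 bp), with 0% and 0% H3K27me3 and 29.9% and 15.3% H3K36me3 in w1118. The insulin receptor gene InR held 3R:21573585-21575673 (2089 bp), with 98.2% and 27.8% H3K27me3 and 100% and 100% H3K36me3 in w1118. The Wnt receptor gene fz2 held 3L:19144146-19146214 (2069 bp), with 33.8% and 0% H3K27me3 and 86.1% and 42.6% H3K36me3 in w1118.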

How the data were processed

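CUT&Tag libraries of HisC and w1118 embryos at 4.5 to 5 h and 5.5 to 6 h were used as the authors deposited them, as peak positions in dm6 (start and end, no height, signal or score). Of 26 deposited lists 24 were used, 8 of H3K27me3 and H3K36me3 and 16 of the other 4 marks; the 2 lists at an earlier time were not used. Per the list names, blacklisted regions had been removed, H3K4me3 and H3K27ac had narrow peaks, and the 4 remaining marks had broad peaks. Per the submitters' processing notes Bowtie2 2.3.4.2 was used, besides SAMtools 1.9, deepTools 3.3.1, cutadapt 1.17 and Trim Galore 0.6.6. For the calling of peaks, no program or threshold is given in the sources used here, and nor is the way libraries of a group were combined. A list depends on these and on depth, which is unknown. The lists differ in the number and length of their peaks, and counts, widths and distances were not adjusted for this.

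Lists were intersected by base with Python 3.11.15, numpy 2.4.6, pandas 2.3.3 and scipy 1.17.1, and drawn with matplotlib 3.10.9. The intersection was tested on simulated lists with known overlap. Genes came from the RefSeq annotation, 17796 on the chromosomes used, of which 15555 had at least 500 bp. It was used without strand, exons or transcripts, and overlapping genes share bases. A gene had the marks together with 20% of its body under both, apart with 20% under each and less than 5% under both, and 1 mark alone with 50% under it and none under the other. A peak met another with at least 1 bp shared.

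Genes were named by rank, leaving out those known by a CG or CR number alone: the largest shared length or share of the body, the longest single marks, the top 3 of each gene list with all Hox genes, and the largest opposite differences between the genotypes. This gave 74 genes, of which part are described. The rank of genes with the marks apart at both times named none. Genes named by another choice are said to be so where they stand. The members, gene lists and thresholds were chosen with earlier results of these data known.

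The alternatives tried were a minimum peak width of 500 bp, the widest peaks in equal number from each list, no chromosome 4, Y or 3 Mb next to centromeres, gaps of up to 500 bp closed, H3K36me3 of the other time, overlap of at least 50% of a peak, other shares of the body, and protein-coding genes only. Leaving out the bases under other marks was added after the data were seen.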

Additional observations from a re-analysis of the deposited data

Results flagged for a closer look

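For 2 pairs of marks the lists met more than lists placed without regard to each other would on average in HisC and less in w1118, at both times. For H3K27me3 and H3K36me3 the ratio was 2.033 at 4.5 to 5 h and 1.597 at 5.5 to 6 h in HisC, against 0.783 and 0.6356 in w1118. For H3K27me3 and H3K4me3 it was 2.637 and 1.768 in HisC, against 0.9215 and 0.9529 in w1118. With 1 list per group these differences were not tested.

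The ratio of H3K27me3 and H3K36me3 lay on opposite sides of 1 on each large chromosome arm. On 2L it was 1.842 and 1.561 in HisC, against 0.6007 and 0.4605 in w1118. On 2R it was 2.106 and 1.724, against 0.932 and 0.7507. On 3L it was 2.113 and 1.569, against 0.7467 and 0.5706. On 3R it was 1.936 and 1.453, against 0.8438 and 0.7466. On the X it was 1.445 and 1.178, against 0.3965 and 0.3685. Outside the 3 Mb next to the centromeres of these arms it was 1.79 and 1.427 in HisC, against 0.6886 and 0.5551 in w1118. Those bases include all of chromosome 4 and the Y. With chromosome 4 and the Y also left out, it was 1.705 and 1.36 in HisC, against 0.6379 and 0.515 in w1118. The differences were not tested on any arm, and the arms of a list share its libraries.

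Among the named genes, 9 had more of one mark at both times in HisC and more of the other at both times in w1118. Their smallest difference between the marks over the 4 pairs of lists, in percentage points of the body, was 56.5 in Nazo, 42.69 in CYLD, 36.22 in Arf6, 22.63 in Tgs1 and in moi, 22.54 in tld, 19.69 in ZAP3 and 18.82 in scny. In Myo81F, which spans much of the stretch beside the 3R centromere, it was 0.3545. These differences were not tested, and 8 of the genes were named because of them.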

How the results depend on the processing

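Closing gaps of up to 500 bp changed none of the 18 values per genotype, because no gap in the 8 lists was shorter than 999 bp, so that setting tested nothing. Of the other 108 values recomputed for HisC, 66 stayed within the limits used here (the 95% interval for a share of peaks, and 1.5 times for shares of length, ratios and counts), 40 moved and 2 were reversed, and for w1118 the numbers were 76, 32 and 0 of 108. The values below are for HisC, at 4.5 to 5 h and then at 5.5 to 6 h. Without the bases under H2AK9ac or H2BK16ac, added after the data were seen, the ratio was reversed to 0.7576 and 0.7086. The shared part was then 3.419% and 2.947% of H3K27me3 and 2.949% and 4.1% of H3K36me3, and 34 and 54 genes had the marks together. Without the bases under all 4 other marks, also added, 307 and 286 genes did. The ratio was also recomputed with peaks of at least 500 bp, the widest peaks, the restricted chromosomes, H3K36me3 of the other time and without the bases under all 4 other marks, and under these 5 it was above 1 in HisC and below 1 in w1118.

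H3K27me3 peaks that met H3K36me3 were 21.78% and 17.76% among peaks of at least 500 bp, 17.57% and 15.13% with 4588 of the widest peaks per list, 22.81% and 22.83% with H3K36me3 of the other time, and 18.23% and 14.16% where 50% of the peak had to be shared. Without chromosome 4, the Y and the 3 Mb next to centromeres the first value was 23.97%. H3K36me3 peaks that met H3K27me3 were 20.77% and 19.29%, 17.5% and 15.17%, 25.43% and 24.79%, and 16.84% and 14.9% under the first 4 of these settings. With the widest peaks only, 290 and 305 genes had the marks together, and 6 had them apart at 5.5 to 6 h. With 10% of the body as the limit 874 and 784 genes had the marks together, and with 50% 90 and 109. Genes with the marks apart numbered 69 and 63 at 10%, and 3 and 3 at 30%. With 25% of the body as the limit, 1415 and 1644 genes had H3K27me3 alone and 3706 and 3441 had H3K36me3 alone. A lower limit on the share of the body admits more genes by construction, and the cause of the other shifts was not tested.

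No paired analysis was possible because each group has 1 list made from all its libraries. For the same reason no run without replicate 1 or 2 was made. Depth and peak height limit every share to where a peak was listed.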
